A study of Homo sapiens with 18 samples.

Results

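The genes described here are the D-type cyclins CCND1, CCND2 and CCND3, their kinase partners CDK4 and CDK6, and 5 inhibitors of cyclin-dependent kinases, CDKN1B, CDKN1C, CDKN2A, CDKN2C and CDKN2D. These 10 genes were taken by symbol from a table of 26372 gene symbols measured in SH-SY5Y, a human line grown from a neuroblastoma, a tumour of the sympathetic lineage. All 10 were in the table, and 8 passed the filter for testing, a mean of at least 1 FPKM over the 18 libraries, as did 13785 genes in all. FPKM is the number of fragments of a transcript scaled to its length and to the library's mapped fragments. CCND2 and CDKN2A did not reach that level.

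The cells carried 1 of 3 lentiviral constructs of ZNHIT3, a HIT zinc-finger protein: the wild-type sequence (WT), the C14R variant, or a deletion variant. The constructs were built in FUGW, a vector in which the human ubiquitin C promoter drives the insert, and no untransduced or empty-vector group was among the libraries. The labels name no removal of the cells' own ZNHIT3 gene. The design text writes the deletion as ∆251-254, while the labels of replicates 2 and 3 end in 255 and 256, and the 3 were treated as one construct. Libraries are labelled day 0 or day 18 of differentiation. Induction began 48 hours after infection and lasted 18 days in serum-free neurobasal and B27 medium. That medium held retinoic acid (all-trans, 10 µM), dibutyryl cyclic AMP (2 mM), KCl (20 mM) and BDNF (50 ng/ml). Growth medium before induction held fetal bovine serum, so days in culture, loss of serum and the added agents cannot be told apart. Each of the 6 groups had 3 libraries. The labels do not say whether these were separate cultures, so p-values measure the spread between these libraries, which may be technical.

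D-type cyclins bind and activate CDK4 and CDK6, and the active kinases phosphorylate the retinoblastoma protein RB, which releases E2F factors and lets a cell pass from G1 into DNA replication. INK4 inhibitors (CDKN2A, CDKN2C, CDKN2D and their relative CDKN2B) bind CDK4 and CDK6 directly. CIP/KIP inhibitors (CDKN1A, CDKN1B and CDKN1C) bind cyclin-kinase complexes, restrain CDK2, and can also help cyclin D-CDK4 complexes to assemble. Neuroblastoma cells are known for high D-type cyclin and CDK4 or CDK6 activity, and retinoic acid is a classical agent for taking such cells out of the cycle.

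Upstream sequences of the 2 INK4 genes that moved in opposite directions, CDKN2C and CDKN2D, are shown first, from stretches outside annotated exons. RefSeq's promoter table (GRCh38.p14) had entries for 7 of the 10 genes, with 13 start sites; CCND1, CCND2 and CDKN1C had no entry. Capitals mark the E-box CACGTG, the CCAAT box CCAAT and the GC box GGGCGG, each searched on both strands. The CDKN2D stretch is chr19:10569060-10569229 on the minus strand and ends 81 bases before the start site. The CDKN2C stretch is chr1:50960495-50960744 on the plus strand, directly before the first of its 3 start sites. The windows of the other 2 CDKN2C start sites lie in exons and are not printed. One held 5 GC boxes, and the other held 1 GC box, 1 CCAAT box and 1 E-box, so CDKN2C has these letters too.
CDKN2D: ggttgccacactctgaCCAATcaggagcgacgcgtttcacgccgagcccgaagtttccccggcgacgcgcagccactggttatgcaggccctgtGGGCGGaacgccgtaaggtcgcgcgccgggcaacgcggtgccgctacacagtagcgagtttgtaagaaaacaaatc
CDKN2C: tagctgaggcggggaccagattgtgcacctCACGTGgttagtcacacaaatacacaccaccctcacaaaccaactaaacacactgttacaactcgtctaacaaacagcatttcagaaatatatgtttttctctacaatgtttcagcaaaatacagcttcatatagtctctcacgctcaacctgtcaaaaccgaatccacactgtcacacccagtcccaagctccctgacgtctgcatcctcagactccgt
An E-box was present in 3 of the 13 windows of 250 bases, those of CDK4 and of the CDKN2C starts with the lowest and the highest coordinate, against 6.34% of all 35116 windows in the table. CDK4 held 3, at 216, 196 and 101 bases before its RefSeq start, and those at 196 and 101 lie in the annotated first exon of longer CDK4 transcripts. The GC box was in 9 of 13 windows against 42.6%, and the CCAAT box in 5 of 13 against 32.0%. Neither the cAMP response element TGACGTCA (1.65% of all windows), nor the TATA box TATAAA (10.7%), nor any of the E2F letters TTTCCCGC, TTTGGCGC and TTTCGCGC (2.32%) was in any of the 13. These counts describe letters in fixed windows only.

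Several facts of the whole series bear on the values. Neuronal markers rose in 7 of 7 tested genes of 8 in each line, where 37.9% to 38.6% of all tested genes rose. RBFOX3 did not pass the filter. The summed level of the neuronal markers was 766.1 to 816.1 FPKM before induction and 1754 to 1998 after it. Of 8 noradrenergic neuroblastoma markers, which check the labelled cell type, 7 passed the filter and TH did not. They were mixed by day, with 3 higher and 2 lower in WT and 4 higher and 2 lower in each variant line (GATA2 fell by 1.88 and GATA3 by 0.47 on the log2 scale in WT), and their sum was 768 to 804.5 FPKM at day 0 and 1039 to 1225 FPKM at day 18. Markers of blood, endothelial, epithelial and liver cells summed to 0.5656 to 1.79 FPKM. Markers of mesenchymal or substrate-adherent cells fell in 6 of 6 tested genes of 8 in each line, where 34.0% to 35.0% of all tested genes fell. Their sums were between 151 and 191 FPKM at day 0 and between 14.64 and 17.57 FPKM at day 18. Their part in the changes described below was not tested. In bulk RNA, fewer cells of a type and less RNA per cell cannot be told apart. ZNHIT3 itself was at 530.6 to 542 FPKM in WT, 418.9 to 432 in C14R and 292 to 310.1 in the deletion line at day 0, and at 1103 to 1193, 599.7 to 755.8 and 294.3 to 312.8 FPKM at day 18. Read depth is not given by FPKM. The step size of low values put day 0 libraries at 59% to 84.7% of the deepest library and day 18 libraries at 81.8% to 100%. Each figure rested on 44 to 61 genes at day 0 and 118 to 297 at day 18, apart from the reference library, WT day 18 replicate 3. The day 0 figures are therefore less certain. In 4 day 0 libraries (WT 1, C14R 1 and 3, deletion 1) a single small RNA, SNORD3A, made up 51.5% to 58.6% of the FPKM sum, against 6.9% to 18.6% in the other day 0 libraries. The library C14R day 18 replicate 1 stood apart from the other 17 on the second principal component (24.8, others between -8.3 and 9.3). It was the highest or lowest of the 9 day 18 libraries for 7 of the 8 tested genes, so C14R day 18 changes of those genes are given with and without it.

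From day 0 to day 18 CCND1, CCND3, both kinases and 1 INK4 inhibitor fell and 3 other inhibitors rose, in all 3 lines. Of the 8 tested genes, 8 passed the threshold in WT (limma, Benjamini-Hochberg adjusted p under 0.05), where 72.2% of all tested genes did so. Counts were 8 of 8 in C14R beside 72.9% of all genes, and 8 of 8 in the deletion line beside 73.0%. A call alone was therefore common. In each line 5 fell (CCND1, CCND3, CDK4, CDK6, CDKN2C) and 3 rose (CDKN1B, CDKN1C, CDKN2D). Among all genes 34.0%, 35.0% and 34.4% fell and 38.2%, 37.9% and 38.6% rose in WT, C14R and the deletion line. The share of calls that rose was 52.9%, 52.0% and 52.8%, and 68.6%, 66.4% and 69.5% when small RNA genes were left out and libraries rescaled, a scaling under which no member changed direction. The members' median log2 change was -0.97, -0.88 and -0.96 in those lines, beside 0.03, 0.02 and 0.03 over all tested genes. All changes are on the log2(FPKM + 1) scale. For each of the 8 genes the day 0 and day 18 libraries did not overlap in any line, as the plot of levels by library shows. The share of all tested genes without overlap was not counted. With 72.2% to 73.0% of all genes called by day, the lack of overlap is not read as particular to these 8.

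**Figure D1:**
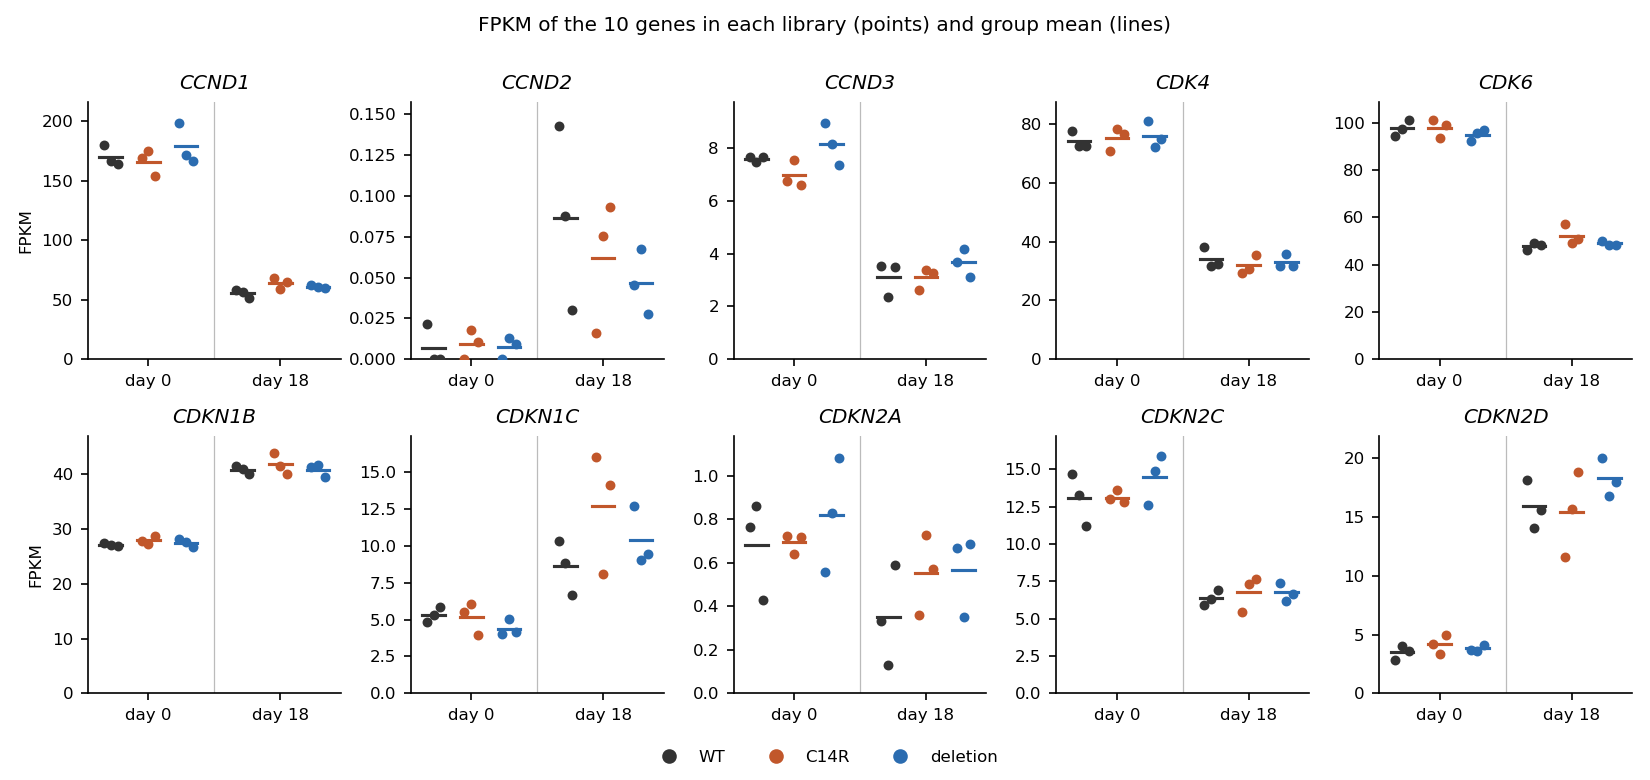
FPKM of the 10 genes (vertical axes, each from 0) in the 18 libraries, by day (horizontal axis) and construct (colour); points are libraries and short lines are means of 3. CCND1 ran from 154 to 199 FPKM at day 0 and from 51.7 to 68.3 at day 18, while CDKN2D ran from 2.86 to 4.94 and from 11.6 to 20.0.

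CCND1, which encodes cyclin D1, was the main D-type cyclin transcript and the member that fell most. In WT its day 0 libraries held 180.3, 167 and 164 FPKM, and its day 18 libraries 58.6, 56.5 and 51.7 FPKM. Every day 18 library was below every day 0 library, and the day 18 mean was 32.7% of the day 0 mean. C14R had 169, 175 and 154 FPKM, then 68.3, 58.9 and 64.8. The deletion line had 199, 172 and 167 FPKM, then 62.5, 60.6 and 60.1. The lines overlapped at day 0, where the deletion line's first library was the highest of all. The log2 change was -1.60 ± 0.07 (SE; adjusted p = 1.33e-12) in WT, -1.36 in C14R and -1.53 in the deletion line, and only 2.4% of tested genes had a lower value in WT. Without the C14R day 18 library that stood apart, the C14R change was -1.41. CCND1 lies on chromosome 11, 69641087-69654474, plus strand (GRCh38), and its exons overlap 497 bases of LTO1, listed in the table as ORAOV1, on the opposite strand. ORAOV1 was at 5.48 FPKM in WT at day 0 and 4.95 at day 18, far below CCND1.

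CCND3, which encodes cyclin D3, was present at a small share of the CCND1 level and also fell. WT libraries read 7.66, 7.46 and 7.65 FPKM on day 0 against 3.53, 2.36 and 3.51 on day 18. C14R libraries read 6.77, 7.56 and 6.60 FPKM, then 2.63, 3.39 and 3.27. Deletion libraries read 8.97, 8.17 and 7.35 FPKM, then 3.70, 4.17 and 3.13. The days were separate in every line, with WT replicate 2 the lowest at day 18. Log2 changes were -1.07 ± 0.11 (SE; adjusted p = 2.03e-07), -0.96 and -0.98 in WT, C14R and the deletion line. CCND3 lies on chromosome 6, 41934933-42050357, minus strand, with 24 exonic bases opposite AL513008.1.

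CCND2, which encodes cyclin D2, was close to 0 throughout and was not tested. It was listed at 0 in 4 of 9 day 0 libraries and reached at most 0.0213 FPKM there. Day 18 libraries ranged from 0.0162 to 0.143 FPKM, with a median of 0.0676. Without the filter its change in WT was 0.11 on the log2 scale with an adjusted p of 0.013, and it did not pass in C14R (0.086) or the deletion line (0.19). No fold is given, since 4 libraries are listed at 0. CCND2 lies on chromosome 12, 4273772-4305350, plus strand, and shares 989 exonic bases with AC008012.1 on the same strand and 126 with CCND2-AS1 on the other.

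CCND1 stayed the main D-type cyclin transcript while the total fell. Summed FPKM of the 3 D-type cyclins was 161 to 208 at day 0, against 55.2 to 71.0 at day 18. CCND1 made up 95.5% to 96.1% of that sum at day 0 and 93.5% to 96.3% at day 18, ranges that overlap.

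CDK4 and CDK6, the kinases that the D-type cyclins activate, were both abundant, and in the 3 lines CDK6 stood at 49.1% to 53.4% and CDK4 at 42.5% to 45.7% of the day 0 mean on day 18. CDK6 was at 94.4, 97.5 and 101 FPKM in WT at day 0 and at 46.1, 49.1 and 48.5 at day 18. C14R had 101, 93.7 and 99.2 FPKM of CDK6, then 57.1, 49.0 and 50.7. The deletion line had 92.4, 95.5 and 97.0 FPKM, then 50.0, 48.5 and 48.5. C14R replicate 1 was the highest day 18 library, and every day 18 value was below every day 0 value. The log2 change of CDK6 was -1.01 ± 0.05 (SE; adjusted p = 6.45e-12) in WT, -0.89 in C14R (-0.96 without that library) and -0.94 in the deletion line. CDK6 lies on chromosome 7, 92604921-92836594, minus strand, with 81 exonic bases opposite AC002454.1.

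CDK4 was lower than CDK6 in every library. In WT it was at 77.7, 72.6 and 72.3 FPKM at day 0, then 38.0, 31.6 and 32.3 FPKM at day 18. C14R gave 70.9, 78.2 and 76.4 FPKM, then 29.4, 30.8 and 35.5. The deletion line gave 80.8, 72.1 and 74.9 FPKM, then 31.6, 35.8 and 31.6. No day 18 library reached a day 0 value. Log2 changes were -1.11 ± 0.08 (SE; adjusted p = 6.25e-10), -1.21 (-1.16 without C14R day 18 replicate 1) and -1.18 in WT, C14R and the deletion line. CDK4 lies on chromosome 12, 57747727-57756013, minus strand, and 1369 of its exonic bases lie opposite exons of TSPAN31. Use of strand in counting is not given in the sources used here, so the levels of these 2 genes are uncertain to that extent. TSPAN31 was at 13.7 ± 0.860 FPKM (SD, n = 3) at day 0 in WT and at 16.8 ± 0.626 at day 18, so it was not lower where CDK4 was.

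The CDK4 to CDK6 ratio of FPKM was 0.705 to 0.875 at day 0, against 0.515 to 0.823 at day 18. Its log2 difference between days was -0.11 in WT (exact two-sided permutation p = 0.400), -0.33 in C14R and -0.25 in the deletion line (exact permutation p = 0.1 in each). With 3 against 3 libraries 0.1 is the smallest p this test can give, and after adjustment over 6 ratio tests the values were 0.400, 0.120 and 0.120. The kinase sum lay between 168 and 176 FPKM at day 0 and between 79.8 and 86.6 FPKM at day 18. Cyclin fell further than kinase: the D-type cyclin sum was 0.915 to 1.20 of the kinase sum at day 0 and 0.683 to 0.820 at day 18, with no overlap.

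**Figure D2:**
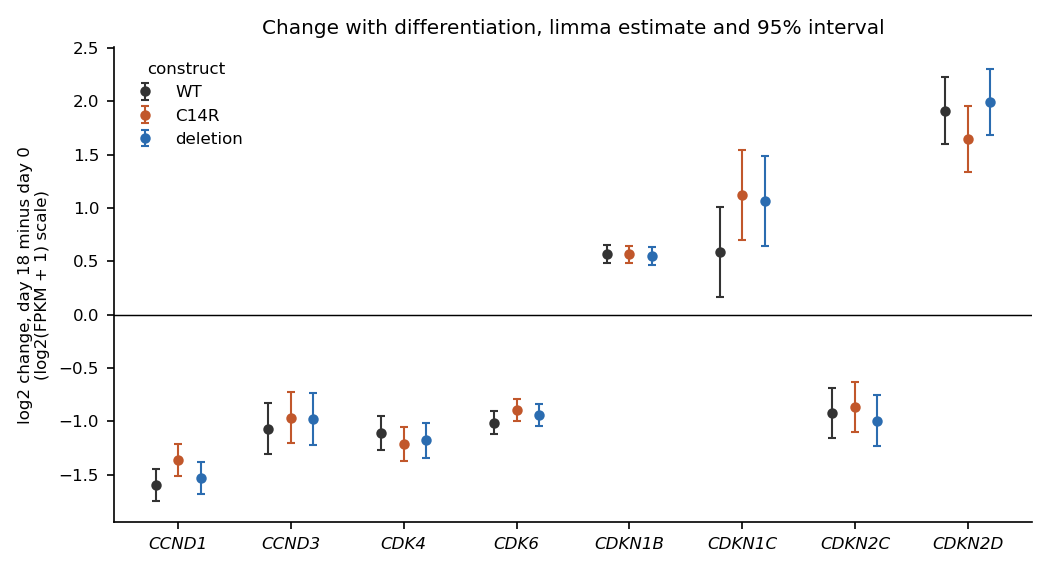
Log2 change from day 0 to day 18 (vertical axis, log2(FPKM + 1) scale) for the 8 tested genes (horizontal axis) in the 3 lines (colour); points are limma estimates and bars are 95% intervals. CCND1, CCND3, CDK4, CDK6 and CDKN2C lie below 0 and CDKN1B, CDKN1C and CDKN2D above 0 in each line, and no interval crosses 0.

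The 2 CIP/KIP members rose. CDKN1B, which encodes p27, had the smallest standard error of the 8 tested genes. In WT, 27.4, 27 and 26.9 FPKM before induction became 41.4, 40.9 and 40.1 after it. C14R had 27.8, 27.2 and 28.7 FPKM, then 43.9, 41.4 and 40.0. The deletion line had 28.2, 27.6 and 26.7 FPKM, then 41.3, 41.6 and 39.5. All 9 day 18 libraries (39.5 to 43.9) were above all 9 day 0 libraries (26.7 to 28.7). Its ratio of day means was 1.5, 1.5 and 1.48, and the log2 changes were 0.57 ± 0.04 (SE; adjusted p = 6.4e-10), 0.57 (0.53 without C14R day 18 replicate 1) and 0.55. CDKN1B lies on chromosome 12, 12715058-12722371, plus strand.

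CDKN1C, which encodes p57, rose with the widest spread. In WT, day 0 libraries held 4.84, 5.32 and 5.84 FPKM and day 18 libraries 10.3, 8.85 and 6.69. C14R had 5.48, 6.03 and 3.92 FPKM, then 16.0, 8.06 and 14.1. The deletion line had 4.0, 5.03 and 4.16 FPKM, then 12.7, 9.0 and 9.42. The days were separate in each line, and the lowest WT day 18 library came within 1 FPKM of the highest WT day 0 library. The log2 change was 0.59 ± 0.20 in WT (SE; adjusted p = 0.0144), 1.12 in C14R (7.62e-05; 0.95 without C14R day 18 replicate 1) and 1.07 in the deletion line (0.000132). In WT this call was lost without WT day 0 replicate 1 (0.53, adjusted p = 0.0509), without WT day 18 replicate 1 (0.46, 0.0718) and without the 4 day 0 libraries high in SNORD3A (0.53, 0.0625). CDKN1C lies on chromosome 11, 2883213-2885773, minus strand.

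CDKN1A, which encodes p21 and is the CIP/KIP gene outside the 10, went the other way and was the larger transcript at day 0. It was at 126, 133 and 121 FPKM in WT at day 0 and at 19.0, 18.1 and 16.8 at day 18, a log2 change of -2.75 (adjusted p = 1.86e-14), with -2.91 in C14R and -3.02 in the deletion line. Because of it the summed CIP/KIP level was lower at day 18 (63.5 to 72.8 FPKM) than at day 0 (149 to 186 FPKM), although both members rose. CDKN1A held 77.8% to 82.6% of that sum at day 0 and 17.8% to 28.4% at day 18. CDKN1B held 15.0% to 19.0% of it at day 0 and 57.5% to 63.1% at day 18, and CDKN1C held 2.16% to 3.81% and then 10.5% to 22%. The family's leading transcript thus changed from CDKN1A to CDKN1B in every library of all 3 lines.

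**Figure D3:**
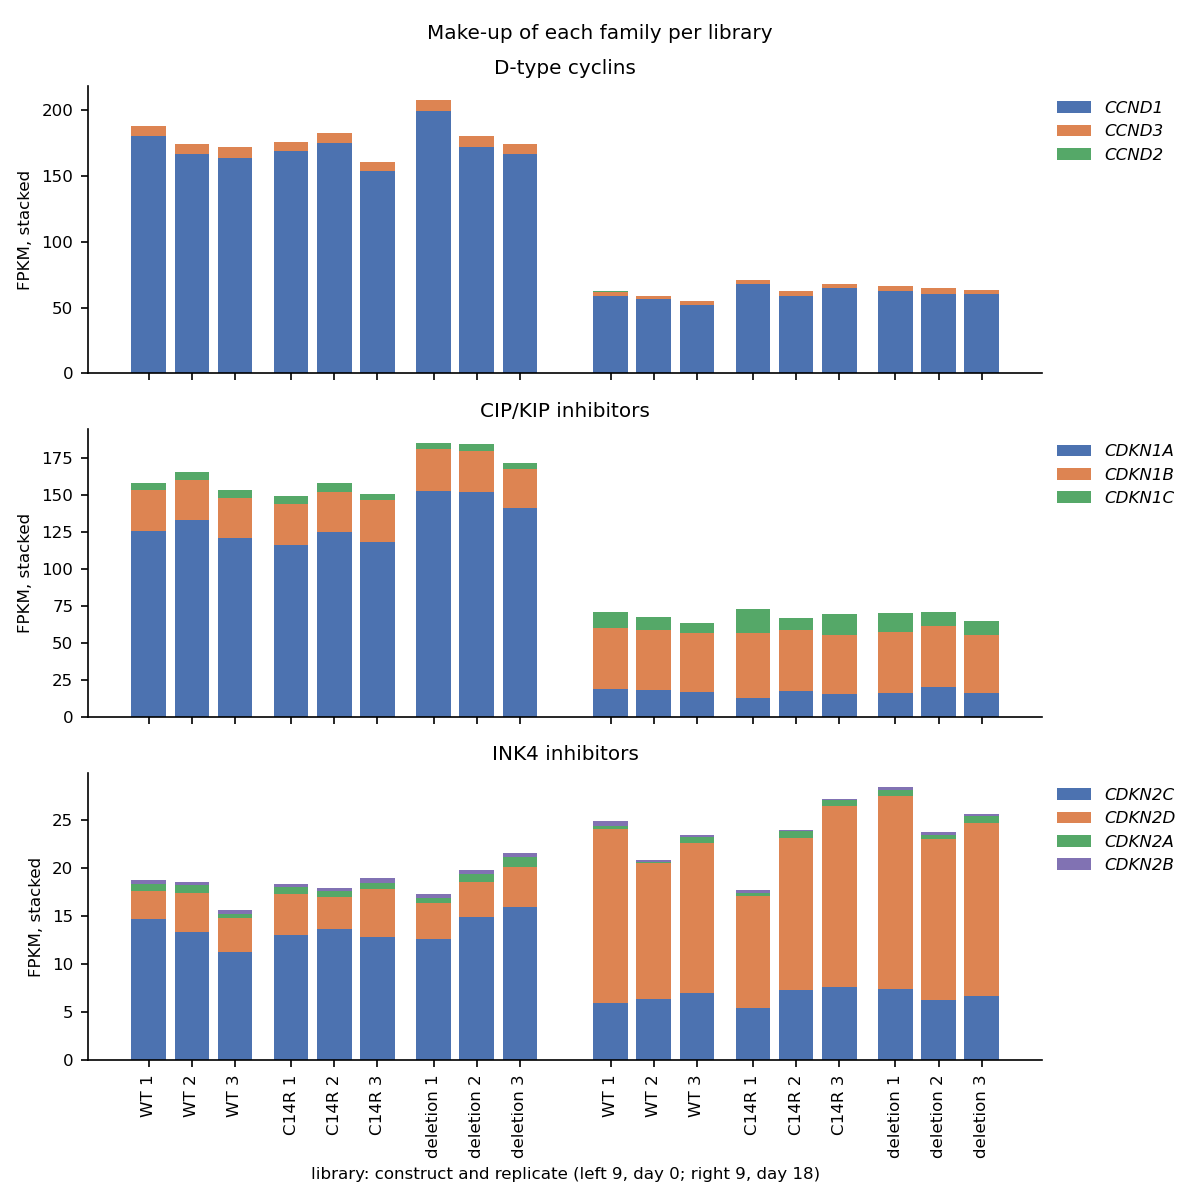
Stacked FPKM (vertical axes from 0) of the D-type cyclins, CIP/KIP inhibitors and INK4 inhibitors in each of the 18 libraries (horizontal axis, construct and replicate). CCND1 fills 93.5% or more of every cyclin bar, CDKN1A gives way to CDKN1B as the largest CIP/KIP part, and CDKN2C gives way to CDKN2D as the largest INK4 part.

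The INK4 family changed its leading member as well. CDKN2C, which encodes p18, fell. In WT it was at 14.7, 13.3 and 11.2 FPKM on day 0 against 5.93, 6.35 and 6.95 on day 18. C14R had 13.0, 13.6 and 12.8 FPKM, then 5.42, 7.33 and 7.63. The deletion line had 12.6, 14.9 and 15.9 FPKM, then 7.41, 6.21 and 6.68. No day 18 library reached the lowest day 0 library. Log2 changes were -0.92 ± 0.11 (SE; adjusted p = 1.05e-06), -0.87 (-0.73 without C14R day 18 replicate 1) and -0.99 in WT, C14R and the deletion line. CDKN2C lies on chromosome 1, 50960745-50974633, plus strand, and no other annotated gene's exons overlap its own.

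CDKN2D, which encodes p19, rose more than any other member. WT libraries were at 2.86, 4.06 and 3.59 FPKM at day 0, then 18.1, 14.1 and 15.6 FPKM at day 18. C14R libraries were at 4.23, 3.36 and 4.94 FPKM, then 11.6, 15.7 and 18.8. Deletion libraries were at 3.73, 3.62 and 4.12 FPKM, then 20.0, 16.8 and 18.0. Every day 18 library was above every day 0 library, with C14R replicate 1 the lowest at day 18. The day means differed 4.55-fold in WT, 3.68-fold in C14R and 4.78-fold in the deletion line. On the log2 scale the changes were 1.91 ± 0.15 (SE; adjusted p = 2.86e-09), 1.65 (1.82 without C14R day 18 replicate 1) and 2.00, and 98.5% of tested genes had a lower value in WT. CDKN2D lies on chromosome 19, 10566462-10569059, minus strand, with no overlapping exons of another gene.

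Set against each other, CDKN2C exceeded CDKN2D at day 0 and fell below it at day 18 in all libraries. The CDKN2C to CDKN2D ratio was 5.14, 3.28 and 3.12 in WT at day 0 and 0.327, 0.451 and 0.447 at day 18, and over all lines it ran from 2.58 to 5.14 and from 0.327 to 0.469. The log2 differences were -3.22, -2.83 and -3.35 in WT, C14R and the deletion line (exact two-sided permutation p = 0.1 in each, the smallest possible, and 0.120 adjusted over 6 tests). CDKN2D made up 15.2% to 26.2% of the INK4 sum at day 0, and 65.6% to 73.1% of it after induction. The sum itself, with CDKN2B included, ranged over 15.7 to 21.6 FPKM at day 0 and overlapped the day 18 range of 17.6 to 28.5. That is over all lines together. In WT the sum was 15.7 to 18.7 FPKM at day 0 and 20.8 to 24.8 at day 18, without overlap. In the deletion line it was 17.3 to 21.6 and then 23.7 to 28.5, also without overlap. C14R held 17.9 to 18.9 FPKM, then 17.6, 23.9 and 27.2, and overlapped only through day 18 replicate 1. The sum was not tested.

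CDKN2A, which encodes p16 and, in another reading frame, ARF, stayed under about 1 FPKM and was not tested. Day 0 libraries ran from 0.428 to 1.08 FPKM with a median of 0.725, and day 18 libraries from 0.130 to 0.727 with a median of 0.574. The days overlapped in every line. Without the filter the log2 changes were -0.32 (adjusted p = 0.071), -0.13 (0.48) and -0.21 (0.23). CDKN2A lies on chromosome 9, 21967753-21995301, minus strand, where 341 exonic bases overlap CDKN2B-AS1, and the gene total does not separate its p16 and ARF transcripts.

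Ordered by WT day 0 mean, the 10 genes ran CCND1 (170.2 FPKM), CDK6 (97.7), CDK4 (74.2), CDKN1B (27.1), CDKN2C (13.1), CCND3 (7.59), CDKN1C (5.33), CDKN2D (3.5), CDKN2A (0.684) and CCND2 (0.00710). At day 18 the WT order was CCND1 (55.6), CDK6 (47.9), CDKN1B (40.8), CDK4 (34.0), CDKN2D (15.9), CDKN1C (8.61), CDKN2C (6.41), CCND3 (3.13), CDKN2A (0.352) and CCND2 (0.0867). CDKN1B passed CDK4, and CDKN2D passed CDKN1C, CDKN2C and CCND3. CDKN1C passed CCND3 and, by its mean, CDKN2C. Libraries of CDKN1C and CDKN2C overlapped at day 18 in WT, as did those of CDKN2A and CCND2, so the order of those neighbours is within the spread; other neighbours did not overlap in WT on either day. The summed member inhibitors were 0.276 to 0.310 of the kinase sum at day 0 and 0.864 to 1.01 at day 18. With CDKN1A and CDKN2B added, that ratio was 0.966 to 1.22 at day 0, against 1.04 to 1.21 at day 18 over all lines. Within lines the days overlapped in WT (0.978 to 1.08, then 1.07 to 1.14) and the deletion line (1.12 to 1.22, then 1.12 to 1.21). In C14R they were narrowly separate (0.966 to 1.03, then 1.04 to 1.13). The days were thus separate in every line for the 5 member inhibitors, but only in C14R for all 7 inhibitors together. Neither ratio was tested.

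The rest of the G1 network was taken from a list of 20 genes around the RB and CDK2 steps, of which 19 were tested. In each line 14 fell and 2 rose, where 34.0% to 35.0% of all tested genes fell and 37.9% to 38.6% rose. SKP2, which marks p27 for degradation, fell from 27.9 ± 1.10 to 9.12 ± 0.419 FPKM (SD, n = 3) in WT, a log2 change of -1.52. E2F1, a target and effector of the RB step, fell by 1.26 on the log2 scale in WT and CKS1B, a partner of SKP2, by 0.99. CDC25A, a phosphatase that activates CDK2, fell by 0.90, RBL1 (p107) by 0.90, CDK2 itself by 0.77 and CCNE2 (cyclin E2) by 0.64. RBL2, the p130 pocket protein of resting cells, rose by 0.18, and AMBRA1, which marks D-type cyclins for degradation, by 0.18. CCNE1 (cyclin E1), FBXW7 and MNAT1 did not pass in any line, with CCNE1 at 6.57 ± 0.327 FPKM at day 0 and 6.57 ± 0.255 at day 18 in WT. The list's median change was -0.40, -0.51 and -0.62 in WT, C14R and the deletion line. A list of 20 genes of S to M phase fell in 20 of 20 in each line, with medians of -1.56, -1.37 and -1.40.

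**Figure D4:**
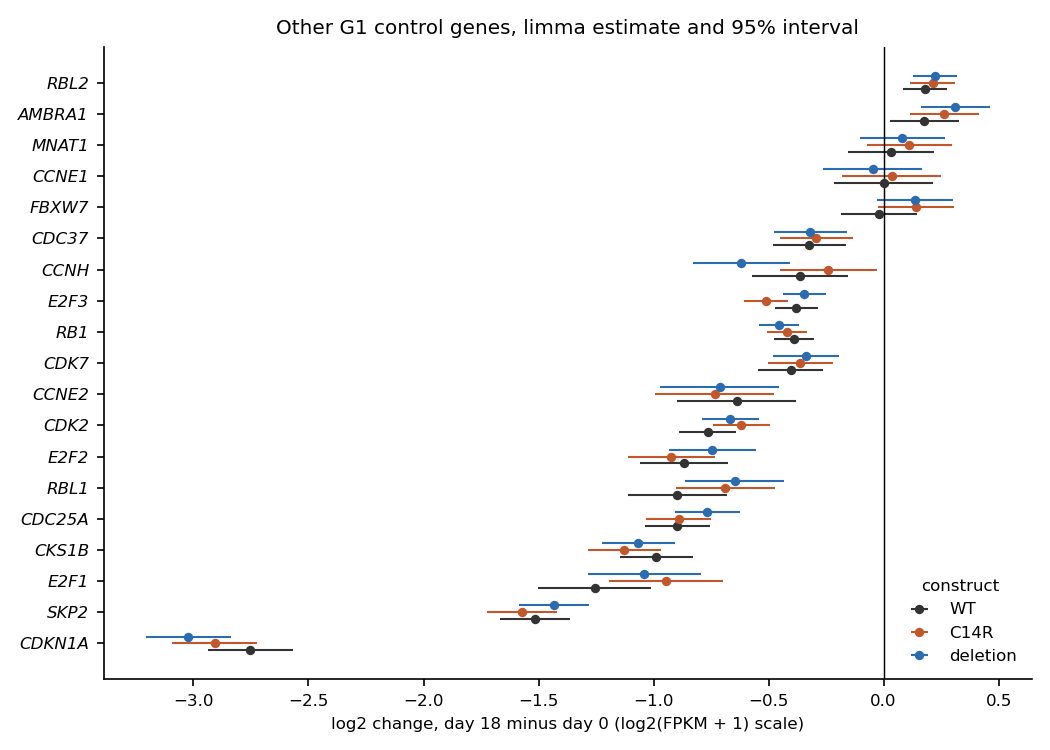
Log2 change from day 0 to day 18 (horizontal axis, log2(FPKM + 1) scale) of the 19 tested genes of the other G1 list (vertical axis, ordered by the WT value), for the 3 lines (colour); points are limma estimates and bars are 95% intervals. CDKN1A lies farthest to the left at -2.75 in WT, and RBL2 and AMBRA1 lie to the right of 0.

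Genes with the most similar profile over the 18 libraries were found for the member with the largest WT change in each class, by the root mean square difference of centred log2 values. Day separates the points, so these distances mostly record the day. Nearest to CCND1 were GTSE1 (0.088), PAPSS2 (0.091) and TLE4 (0.092). Nearest to CDK4 were RPS13 (0.059), RPL29 (0.077) and HIST1H1D (0.079), and nearest to CDKN2D were HID1 (0.134), ABTB2 (0.143) and LYNX1 (0.163). Distances for CDKN1C were larger, with AQP1 (0.213), CCDC171 (0.220) and EPAS1 (0.229).

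No member passed the threshold between constructs on either day. At day 0, 0 of the 8 tested genes passed between C14R and WT, where 0% of all tested genes did (limma; 388 of 13785 genes and 0 members had an unadjusted p under 0.05). Between the deletion line and WT, 0 of 8 passed at day 0 beside 0.0290% of all genes. An unadjusted p under 0.05 was found there for 857 of 13785 genes and 0 members. At day 18, 0 of 8 passed between C14R and WT beside 0.0363% of all genes, and between the deletion line and WT 0 of 8 beside 0.0725%. Between C14R and the deletion line 0 of 8 passed on either day, beside 0.0580% at day 0 and 0.0290% at day 18. No member had an unadjusted p under 0.05 there, beside 1357 of 13785 genes at day 0 and 1539 at day 18.

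In C14R against WT at day 18, 3 of the 8 members had an unadjusted p under 0.05 (limma), beside 1535 of all 13785 genes. In the deletion line against WT 0 members did, beside 1576 of 13785 genes. The CCND1 difference, C14R minus WT, was 0.20 (95% interval 0.05 to 0.35, limma adjusted p = 0.287). C14R libraries held 68.3, 58.9 and 64.8 FPKM and WT libraries 58.6, 56.5 and 51.7. Deletion libraries held 62.5, 60.6 and 60.1 FPKM, with a difference from WT of 0.13 (interval -0.01 to 0.28, limma adjusted p = 0.481). Both comparisons use the same 3 WT libraries. In C14R the CDK6 difference was 0.12 (interval 0.01 to 0.22; adjusted p = 0.382), and that of CDKN1C was 0.48 (interval 0.06 to 0.90; adjusted p = 0.378) with overlapping libraries. Without C14R day 18 replicate 1 the C14R differences of CCND1, CDK6 and CDKN1C became 0.15, 0.06 and 0.30 (adjusted p = 0.422, 0.627 and 0.587). Without C14R day 18 replicate 2, the lowest of the 3 for CDKN1C, the CDKN1C difference was 0.76 and passed at an adjusted p of 0.0498. For the deletion line at day 18 the CDKN1C difference was 0.25 (interval -0.18 to 0.67), and it was 0.09 without WT day 18 replicate 3 and 0.10 without deletion day 18 replicate 1. Its interval reaches sizes as large as the WT day change of that gene, whereas for CDKN1B the interval of -0.08 to 0.08 is narrow. In the S to M list, 0 of 20 passed between C14R and WT at day 18, with 20 of 20 above 0 and a median of 0.18 (19 of 20 and 0.15 without C14R day 18 replicate 1). In the deletion line 0 of 20 passed, with 16 of 20 above 0 and a median of 0.10. Among all tested genes 49.1% and 51.8% were above 0 in these comparisons.

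**Figure D5:**
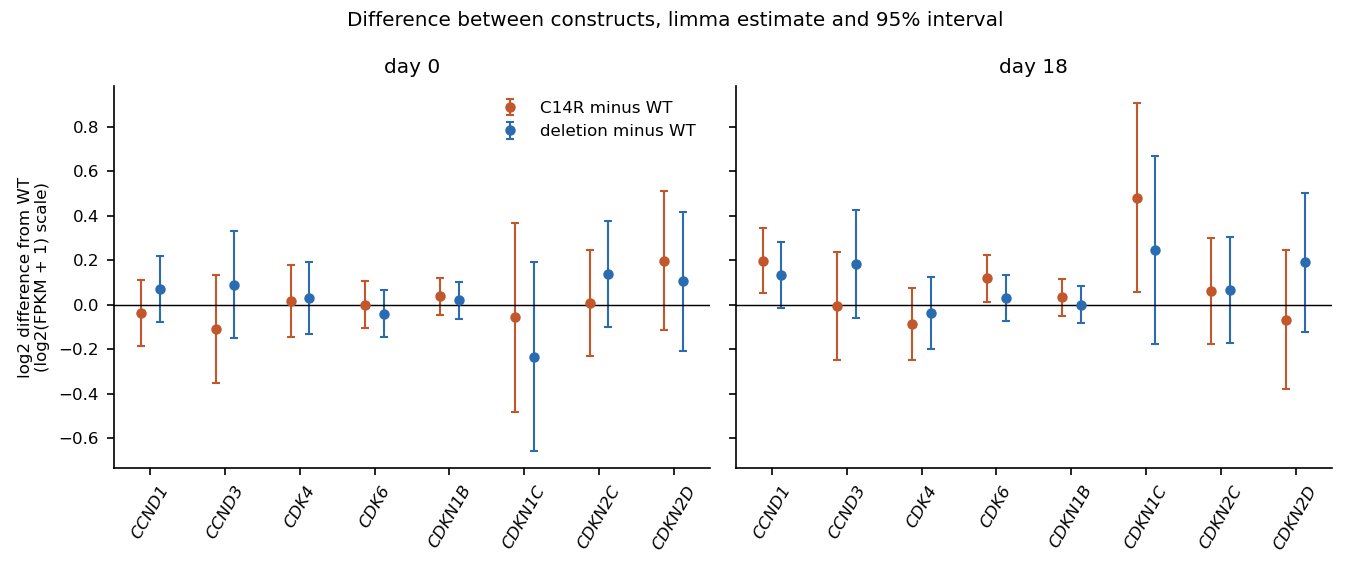
Log2 difference of C14R and of the deletion line from WT (vertical axis, log2(FPKM + 1) scale) for the 8 tested genes (horizontal axis) at day 0 and day 18 (panels); points are limma estimates and bars are 95% intervals. At day 18 the C14R intervals of CCND1, CDK6 and CDKN1C lie above 0 without adjustment, and no adjusted p passed.

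Whether the day change itself differed between constructs was tested by interaction. For C14R, 0 of 8 members passed beside 0% of all genes (790 genes and 1 member, CCND1, had an unadjusted p under 0.05). Its interaction, the C14R day change minus the WT day change, was 0.24 (interval 0.03 to 0.45; adjusted p = 0.848), with 0.19 without C14R day 18 replicate 1 and 0.12 without the 4 SNORD3A-high libraries. For the deletion, 0 of 8 passed beside 0.0145% of all genes (1014 genes and 0 members had an unadjusted p under 0.05). The CDKN1C interaction was 0.54 for C14R (interval -0.06 to 1.14; adjusted p = 0.872) and 0.48 for the deletion (interval -0.12 to 1.08; adjusted p = 0.793), and these 2 share the WT libraries. The C14R value was 0.36 without C14R day 18 replicate 1 and 0.81 without replicate 2, and over all alternatives the deletion value ran from 0.33 to 0.60. ZNHIT3 itself differed between constructs in the same fit by -0.83 in C14R and -1.93 in the deletion line against WT at day 18. Its value is a total per gene symbol, so the cells' own transcript and that of the construct are not separated. Variant and ZNHIT3 level differed together between the lines, so they cannot be told apart.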

How the data were processed

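RNA was measured by rRNA-depleted RNA-seq in 18 libraries. FPKM values were deposited by the authors, 1 per gene symbol and library, and no column of values lacked a sample (0 columns). The submitters' processing notes name hg38, TopHat2, STAR and Cufflinks 2.2.1, without their roles; use of strand and read depth are not given in the sources used here. All values were used as deposited on the log2(FPKM + 1) scale, which understates changes of low genes. Genes with a mean FPKM of at least 1 were tested with limma 3.58.1 (R 4.3.3) in one fit of 6 groups over 18 libraries, with a mean-variance trend and Benjamini-Hochberg adjustment per comparison at 0.05. Alternatives covered the pseudocount, filter, scaling, replicate block, variance model, a log2 threshold and leaving out each library; leaving out 4 SNORD3A-high libraries was chosen after seeing the data. The fit was tested on simulated data. Ratios of FPKM were compared by exact permutation tests (scipy 1.17.1). Positions and overlaps come from GENCODE release 29 on GRCh38. The members, gene lists and tests were chosen with earlier results of these data known. Named genes are the members, a list of 20 other G1 genes, a list of 20 S to M phase genes, the 3 nearest profiles for the most changed member of each class, the overlapping genes and ZNHIT3. The planned CCND1 to CCND2 ratio was not computed, since CCND2 was at 0 in 4 libraries.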

Additional observations from a re-analysis of the deposited data

How the results depend on the processing

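Of 720 member day changes under 30 alternatives, 706 kept their direction and side of the threshold, 14 lost the call and 0 reversed. Members called fell to 5 in WT, 4 in C14R and 4 in the deletion line when an absolute log2 change of at least 1 was added. Without the filter 9 of 10 were called in WT, with CCND2 added, beside 11597 of 21412 genes. Leaving out 1 library in turn gave 7 to 8 members in WT, 8 to 8 in C14R and in the deletion line, and 0 to 1 in C14R against WT at day 18. No pair of groups had all 3 same-number correlations above 0.1, a cut that cannot exclude pairing with 3 libraries a group. Each library correlated best with its own number only for C14R day 0 with deletion day 18 (0.126, 0.102 and 0.047). With the replicate block, 8, 8 and 8 members were called by day and 0 between constructs. That block gave 9932, 9971 and 10029 of all genes by day, and 6 in deletion against WT at day 18. Leaving out small RNA genes and rescaling moved the median change of all genes to 0.21, 0.18 and 0.23 and the share of calls that were higher from 52.9%, 52.0% and 52.8% to 68.6%, 66.4% and 69.5%; relative to that median the WT changes were -1.60 for CCND1 and 0.56 for CDKN1B, and no member changed direction. Of all genes, 5 passed in C14R against WT at day 18, with 205 under array weights, 10 without the filter, 2 with only the compared libraries, 3 without the 4 SNORD3A-high libraries, and 4 to 126 on leaving out 1 library (126 without C14R day 18 replicate 2). In deletion against WT at day 18, 10 passed, with 95 under array weights, 26 under quantile normalization, 23 with a pseudocount of 0.1, 16 without the filter, 6 at a mean FPKM of at least 5, 2 with only the compared libraries, 2 without the 4 libraries, and 2 to 51 on leaving out 1 library (51 without C14R day 18 replicate 1). Between C14R and deletion at day 0, 8 passed, with 95 under array weights, 2 without the 4 libraries and 1 to 10 on leaving out 1 library. The 4 genes between C14R and deletion at day 18 became 13 without the filter, 9 under array weights and 2 at a mean FPKM of at least 5; the 4 between deletion and WT at day 0 became 2 without the filter, 1 at a mean FPKM of at least 5, 2 with a log2 change of at least 1, and 2 to 5 on leaving out 1 library (2 without WT replicate 2, deletion replicate 2 or deletion replicate 3 of day 0); the interactions ran from 0 to 4 for C14R and 1 to 6 for deletion. By day, 1938, 1917 and 1985 genes passed with a log2 change of at least 1. The cause was not tested. Depth is unknown beyond relative steps, which limits CCND2 and CDKN2A.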
